A study of Mus musculus with 2 samples.

Results

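Mir221 and Mir222 are neighbouring microRNA genes of the mouse X chromosome whose main products share a seed, the short stretch near the 5′ end of a microRNA that pairs with its target RNAs. Both were found by matching the Ensembl identifiers of the count tables to GENCODE symbols, and they are 2 of 1973 genes listed and 2 of the 385 called detected, with 10 or more counts in each library. They were counted in hindbrain, from which the brainstem below the midbrain and the cerebellum develop, of healthy B6NCrl mouse embryos at embryonic day 16.5. The series has 1 group of 2 biological replicates, each a pool of male and female embryos with its own library, and replicate 2 came from 37 embryos. The labels name no treatment and no altered allele, so no condition was compared, and the comparisons are between hairpins and between libraries. A pool of whole hindbrain mixes neurons, glia, vessels and blood.

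MicroRNAs of this pair are cut from hairpin precursors, loaded into an Argonaute protein and guided to messenger RNAs by the seed. In human tumour cells miR-221 and miR-222 lower CDKN1B (p27), an inhibitor of the cell cycle, and in human endothelial and erythroid cells they lower KIT, the receptor of stem cell factor. They are best known from blood vessels, blood precursors and tumours, glioma among them.

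The mature sequences are shown because the seed is what joins the pair. They are RefSeq's for GRCm38.p6, written 5′ to 3′ with the seed (bases 2 to 8) in capitals, and the last line gives the one other mature sequence of the table, among 1738, that has the seed of the 3p products.
mmu-miR-221-3p: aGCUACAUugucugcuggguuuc
mmu-miR-222-3p: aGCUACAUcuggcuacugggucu
mmu-miR-221-5p: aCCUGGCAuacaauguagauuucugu
mmu-miR-1928: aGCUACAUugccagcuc
The 3p products of Mir221 and Mir222 were identical over the first 8 bases and at 11 of 23 positions in all, counted from the 5′ end. The 5p product of Mir221 has another seed.

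The hairpins are shown with the listed mature arms in capitals, since the deposited values count reads over a hairpin and do not separate its arms.
Mir221 hairpin: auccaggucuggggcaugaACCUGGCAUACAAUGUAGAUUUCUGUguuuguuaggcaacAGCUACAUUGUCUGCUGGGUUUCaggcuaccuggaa
Mir222 hairpin: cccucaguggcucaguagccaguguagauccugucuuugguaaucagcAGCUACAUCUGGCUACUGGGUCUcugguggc
The longest run of bases common to both hairpins was 9 bases. None of the 3 mature sequences of the pair was found in another hairpin of the RefSeq table, 0 hairpins for each. Reads that map to several places were left out of the deposited gene counts, 34.5% of the reads of replicate 1 and 35.1% of those of replicate 2.

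Mir221 (ENSMUSG00000065422.1) lies on the minus strand at chrX:19146294-19146388 (mm10) and is 95 bases long. Mir222 (ENSMUSG00000065471.1) lies on the same strand at chrX:19146893-19146971 and is 79 bases long. Transcription on this strand meets Mir222 first, and 504 bases separate the hairpins. Neither hairpin overlaps another gene of GENCODE M21, so the annotation gives the pair no host gene, exon or intron. The nearest gene on the upstream side is Gm14636, a noncoding gene on the same strand that ends 10009 bases before Mir222. On the downstream side the nearest gene is the processed pseudogene Gm5383, 203065 bases from Mir221.

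**Figure D1:**
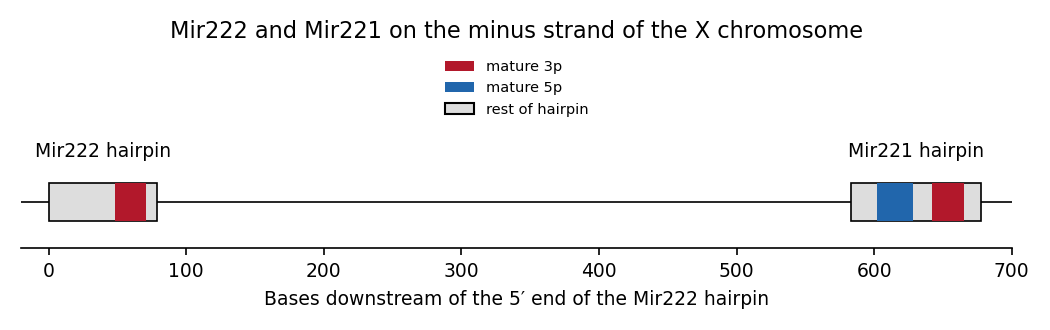
Map of the pair to scale, with bases downstream of the 5′ end of the Mir222 hairpin on the horizontal axis. Grey boxes are the hairpins, red parts the listed mature 3p products and the blue part the listed 5p product of Mir221. The hairpins lie 504 bases apart in a stretch of 678 bases.

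Both microRNAs were present at a middling level. Mir221 had 922 sense counts in replicate 1 and 786 in replicate 2, out of 5097205 and 4460836 sense counts on all listed genes. That is 180.9 and 176.2 CPM (counts per 1000000 sense counts), with exact (Clopper-Pearson) 95% binomial intervals of 169.4 to 192.9 and 164.1 to 189.0 CPM. These intervals overlapped. They cover counting error only, because without molecular identifiers several reads can stem from one molecule.

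Mir222 had 452 and 416 sense counts in replicates 1 and 2. Its levels were 88.68 and 93.26 CPM, with intervals of 80.69 to 97.24 and 84.51 to 102.7 CPM. The libraries overlapped for Mir222 as well, and both lay below either level of Mir221. The opposite strand held 0 counts at both hairpins in both libraries.

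The mean level was 178.5 ± 3.31 CPM for Mir221 and 90.97 ± 3.24 CPM for Mir222 (SD, n = 2). In percent of the mean, the SD between libraries was 1.85% for Mir221 and 3.56% for Mir222. Counting alone, taken as a Poisson error at the mean count of a library, gives 3.42% for Mir221 and 4.8% for Mir222, more than the observed spread of either on plain totals. On the TMM-scaled totals of the library test below, the log2 ratio of replicate 1 over replicate 2 for Mir222 was -0.14, against -0.07 on plain totals. The comparison with counting error is therefore limited to plain totals.

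In the order of the detected genes Mir221 was number 175 and Mir222 number 220 of 385. Mir221 stood at 1.19 times and Mir222 at 0.606 times the median level of the detected genes, which was 150.2 CPM. The neighbours directly above and below Mir221 were Mir488, at 181.6 ± 9.85 CPM, and Mir542, at 177.8 ± 31.8 CPM (SD, n = 2). Those of Mir222 were Mir199b, at 92.65 ± 12.1 CPM, and Mir33, at 90.01 ± 14.1 CPM (SD, n = 2). None of these 4 neighbours was told apart from the member by the rule used for ratios, by which a mean log2 ratio must have the same sign in both libraries and exceed 2 SD.

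**Figure D2:**
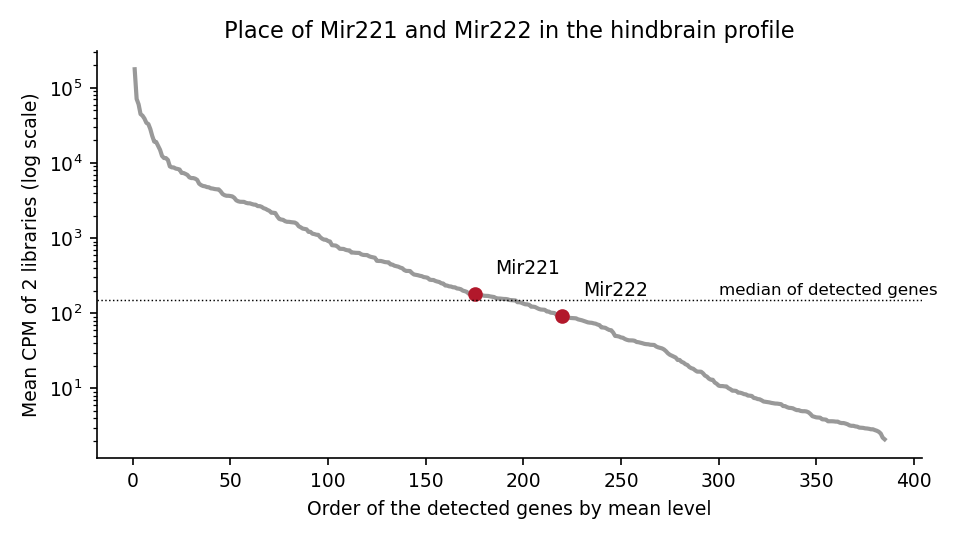
Mean CPM of the 2 libraries on a log scale (vertical axis) against the order of the 385 detected genes by that mean (horizontal axis). The grey line is all detected genes, the dotted line their median of 150.2 CPM and the red points the pair, with Mir221 above the median at 178.5 CPM and Mir222 below it at 90.97 CPM.

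The genes with the profile most like that of each member were taken as the 5 with the smallest Euclidean distance in log2(CPM + 1) over the 2 libraries. For Mir221 these were Mir16-2, Mir29a, Mir488, Mir148b and Mir500, with distances from 0.0754 to 0.136. Mir16-2 shares the cell-cycle-restraining seed of the miR-15/16 family, and Mir29a belongs to a family that targets collagen messages. For Mir222 they were Mir24-2, Mir673, Mir216a, Mir192 and Gm23935, with distances from 0.0729 to 0.161. Mir24-2 lies with Mir23a and Mir27a in a cluster known from endothelium. Mir24-2 and Mir16-2 each have a mature sequence that occurs in another hairpin too. Their reads that map to several places were not counted, so their levels can be too low. Of the 10, Mir216a alone was past the limit of 2 SD, below Mir222 by a mean log2 ratio of 0.07 ± 0.01 (SD, n = 2). This limit takes no account of counting error. At 432 and 393 counts against 452 and 416 for Mir222, so small a difference was not shown to exceed it. With 2 libraries this likeness is one of level and carries no information on shared regulation.

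**Figure D3:**
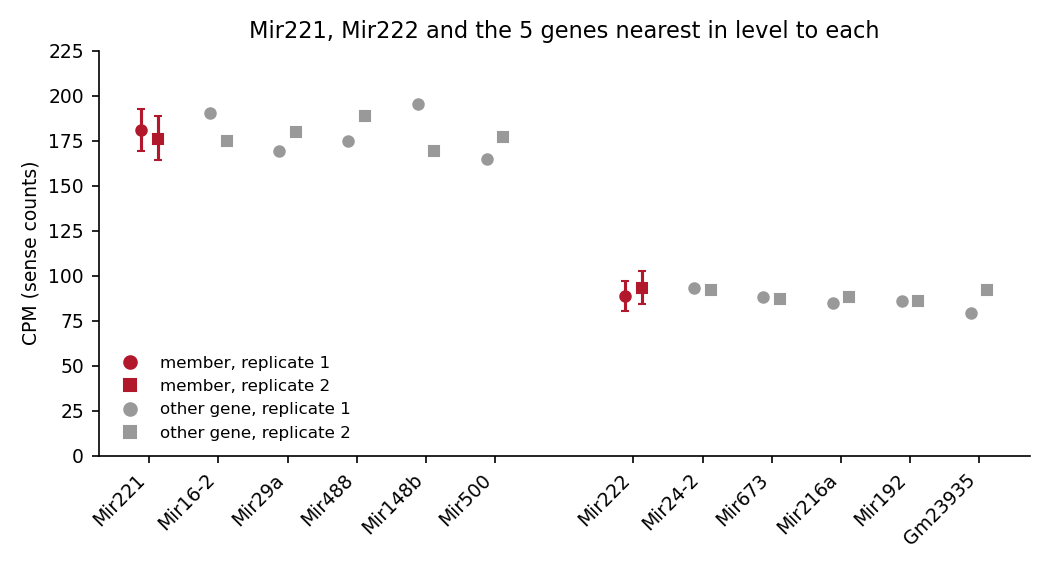
CPM of sense counts (vertical axis) for Mir221, Mir222 and the 5 genes nearest in level to each (horizontal axis), with circles for replicate 1 and squares for replicate 2. Bars on the red points are exact 95% binomial intervals. Mir221 lies at 180.9 and 176.2 CPM and Mir222 at 88.68 and 93.26 CPM, and the grey points lie between 164.6 and 195.4 CPM beside Mir221 and between 79.26 and 93.19 CPM beside Mir222.

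In sense counts Mir221 exceeded Mir222 in both pools, by a factor near 2. How evenly the 2 sequences entered the libraries was not measured, so the factor is one of reads. The ratio of Mir221 to Mir222 was 2.04 in replicate 1, with an exact binomial 95% interval of 1.82 to 2.29, and 1.89 in replicate 2, with an interval of 1.68 to 2.13. Mir221 held 67.1% of the 1374 counts of the pair in replicate 1 and 65.4% of the 1202 in replicate 2. The mean log2 ratio was 0.97 ± 0.08 (SD, n = 2), past the limit of 2 SD. With 2 libraries the smallest p of an exact sign-flip test is 0.5, so this limit stands in for a test. The same limit was passed by 92.8% of the 97 pairs of neighbouring hairpins described below, so passing it does not set the pair apart.

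The counts of the 2 hairpins were not divided by length, because the libraries hold RNA shorter than 30 nt and both 3p products have 23 bases. Per base of hairpin, a scale added after the data were seen, the log2 ratio was 0.76 in replicate 1 and 0.65 in replicate 2. The direction and the call did not depend on this choice.

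The ratio within the pair differed little between the pools. It was 0.11 higher in replicate 1 than in replicate 2 on the log2 scale. The odds ratio was 1.08, with an exact conditional 95% interval of 0.913 to 1.28 and a two-sided Fisher's exact test p of 0.38 (adjusted p = 0.559 over 97 pairs). By this test 35.1% of the 97 pairs changed their ratio between the libraries. The test needs no scaling of the libraries. A change of the ratio of up to 1.28-fold lies within the interval, so the data do not show that it was the same.

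Summed over both hairpins, which bear the same 3p seed, the pair held 1374 and 1202 counts in replicates 1 and 2. This was 269.6 and 269.5 CPM, or 0.0270% of the sense counts in each library. The exact binomial 95% intervals were 0.0256% to 0.0284% in replicate 1 and 0.0254% to 0.0285% in replicate 2. The sums lay far closer to each other than counting error allows one to resolve, and they are this close on plain totals only. Mir1928, the other bearer of the seed, had an entry and 0 counts in both libraries, and with a limit of 3 counts per library its level could be as high as 0.589 and 0.673 CPM in replicates 1 and 2. At this depth all counts on hairpins with the seed GCUACAU of the RefSeq table came from Mir221 and Mir222.

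Between the pools neither member passed the test. After TMM scaling the log2 ratio of replicate 1 over replicate 2 was -0.03 for Mir221, with an exact binomial 95% interval of -0.17 to 0.11. For Mir222 it was -0.14, with an interval of -0.33 to 0.06. The adjusted p of the exact two-sided binomial test was 0.815 for Mir221 and 0.276 for Mir222, adjusted over the 401 genes with 20 or more counts in the 2 libraries together. Of these 401 genes 46.4% passed this test, which allows for counting noise only and compares the libraries, not conditions. Of the 401 genes, 98 passed as higher in replicate 1, 88 as higher in replicate 2 and 215 did not pass, and with plain library totals these were 131, 62 and 208. With plain totals the log2 ratio of Mir221 turned its sign, to 0.038, and that of Mir222 was -0.07.

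Of the 40 tested genes nearest in level to Mir221, 26 passed, and their median absolute log2 ratio was 0.22. Of the 40 nearest to Mir222, 19 passed, and the median was 0.19. Over all tested genes the spread between the libraries was a biological coefficient of variation (BCV) of 16.2%, from the common dispersion that edgeR fits with no contrast. By edgeR's exact test at this spread the adjusted p was 1.0 for Mir221 and for Mir222, and 0.748% of genes passed. The spread was estimated from the same 2 libraries that this test compares. Few genes can pass for that reason, and the test cannot show that the members were the same in both. At an assumed BCV of 0.1 the adjusted p of edgeR's exact test was 1.0 for Mir221 and 0.975 for Mir222, and 1.75% of genes passed.

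Other hairpins that lie next to each other mostly differed more in level than Mir221 and Mir222. The 97 pairs are adjacent listed microRNA genes on the same strand, at most 10000 bases apart, with at least 10 counts per hairpin and library. Hairpins so close may be cut from one transcript, which was not measured. Taking the more abundant hairpin over the less abundant, the log2 ratio of Mir221 over Mir222 was 0.97, against a median of 2.59 over the other 96 pairs, which ranged up to 10.4. Of these 96 pairs, 80 had a larger ratio and 16 a smaller one.

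Of the 96, 6 pairs hold a hairpin without a mature sequence in the RefSeq table and could not be compared by seed. The smallest log2 ratio among these 6 was 0.11, of Mir449b over Mir449c at 14 counts or fewer per hairpin and library. The others of the 6 had a larger ratio than Mir221 over Mir222. Of the remaining pairs, 19 share a seed as Mir221 and Mir222 do. The median log2 ratio of these 19 was 2.37, and 17 of 19 had a larger ratio than the pair. The 2 with a smaller ratio were Mir93 over Mir106b, of a proliferation-linked cluster in Mcm7, at 0.05 ± 0.07, and Mir98 over Mirlet7f-2, let-7 family members on the X chromosome, at 0.77 ± 0.04 (log2, SD, n = 2). The closest above were Mir15a over Mir16-1 at 1.23 ± 0.06 and Mir411 over Mir379 of the imprinted Dlk1-Dio3 region at 1.29 ± 0.13 among the 10 named pairs. Mir181c exceeded Mir181d by 1.40 ± 0.29 on the same scale.

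At the far end Mir132 exceeded Mir212, its partner in neuronal activity responses, by 4.21 ± 0.01 (log2, SD, n = 2). Mir34c exceeded Mir34b, of multiciliated cells, by 4.86 ± 0.17. Mirlet7b exceeded Mirlet7c-2 by 3.72 ± 0.26, Mirlet7d exceeded Mirlet7a-1 by 5.22 ± 0.21, and Mir30e exceeded Mir30c-1 by 8.14 ± 0.06. In several such pairs a hairpin has a mature sequence that occurs in another hairpin too, so that part of its reads maps to several places and was not counted. Without those, 8 pairs that share a seed were left beside Mir221 and Mir222, with a median of 1.83, and 7 of the 8 had a larger ratio. This restriction was added after the data were seen.

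The change of the ratio between libraries was 0.11 on the log2 scale for Mir221 over Mir222, against a median absolute change of 0.17 over the other 19 pairs that share a seed. It was smaller in 7 of the 19 and larger in 12. The largest absolute change, 0.63, was that of Mir181a-1 over Mir181b-1, named after its values were seen, where Mir181b-1 had 36 and 24 counts in replicates 1 and 2.

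**Figure D4:**
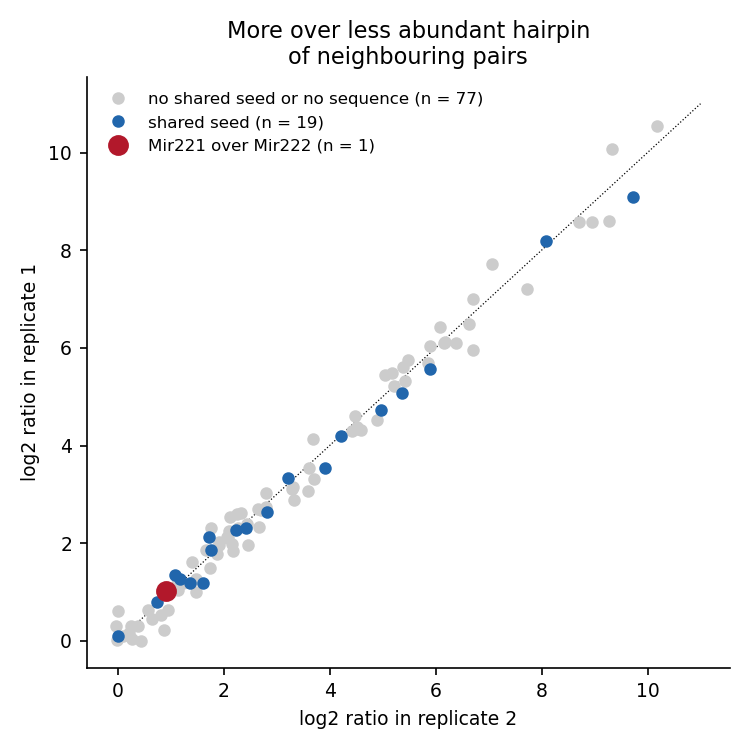
log2 ratio of the more abundant over the less abundant hairpin in replicate 1 (vertical axis) and replicate 2 (horizontal axis) for 97 neighbouring pairs. The red point is Mir221 over Mir222 at 1.03 and 0.92, and blue points are the other 19 pairs that share a seed. Grey points are the remaining 77, which share no seed or lack a sequence. The dotted line marks equal ratios, and the red point lies near it at the low end.

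On the X chromosome, where 42 of 120 listed microRNA genes were detected, Mir221 was number 20 and Mir222 number 29 in level. The X-linked genes held 3.61% ± 0.12 of all sense counts (SD, n = 2), and the pair held 0.729% of the X-linked counts in replicate 1 and 0.764% in replicate 2. The exact binomial 95% intervals of these shares, 0.691% to 0.769% and 0.722% to 0.808%, overlapped. Both sexes were pooled, so the number of X chromosomes per cell was not set by the design.

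The X-linked genes of highest level were Mir322 of the miR-15/16 seed family, at 7377 ± 858 CPM, Mir98 of the let-7 family at 4777 ± 47.8 CPM, Mir1298 at 4463 ± 576 CPM, Mir652 at 4454 ± 347 CPM and Mir361 at 3633 ± 177 CPM (SD, n = 2). All 5 stood more than an order of magnitude above Mir221 and Mir222. Between the libraries 14 of 43 tested X-linked genes passed the exact binomial test with the higher level in replicate 1, against 24.4% of all tested genes in that direction. In the other direction 7 passed with the higher level in replicate 2, against 21.9% of all. With plain totals these were 19 and 5. Mir221 and Mir222 were among the 22 that did not pass.

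**Figure D5:**
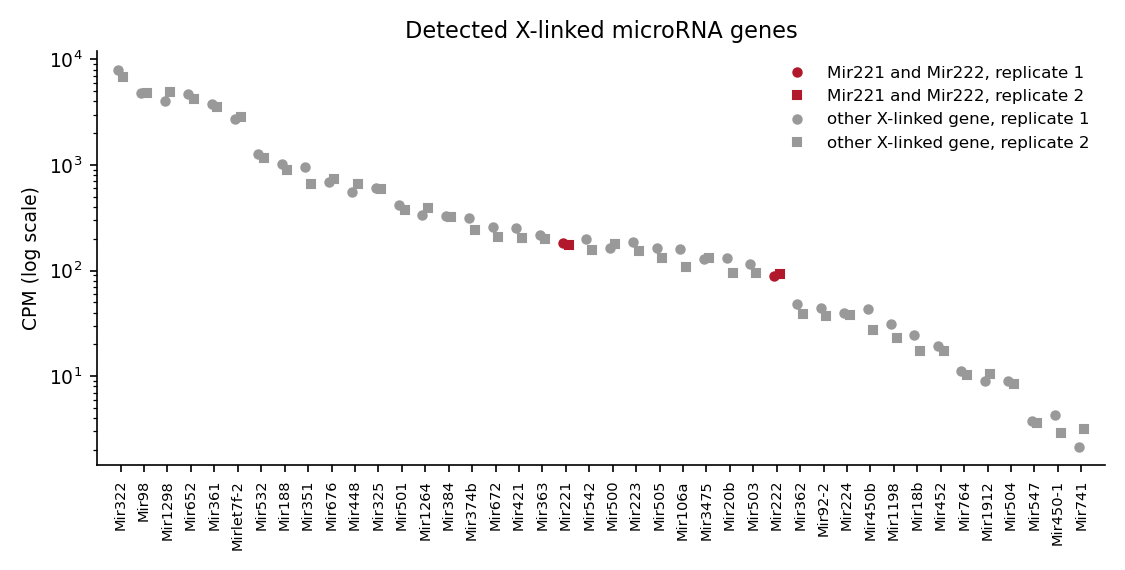
CPM on a log scale (vertical axis) of the 42 detected X-linked microRNA genes in order of mean level (horizontal axis), with circles for replicate 1 and squares for replicate 2. Mir221 and Mir222, in red, lie at 180.9 and 176.2 CPM and at 88.68 and 93.26 CPM, below Mir322 at 7377 CPM on average.

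Mir221 and Mir222 were set beside microRNAs of the cell types that a hindbrain pool holds. They lay below the leading members of the vascular, mural, neuronal and Hox lists. They lay in the range of the less abundant vascular, mural and Hox members. In the neuronal list they fell in a gap, below Mir9-3 at 476.0 ± 13.2 CPM and above Mir124a-1 at 3.615 ± 0.991 CPM (SD, n = 2). On the mean of the 2 libraries Mir221 lay above all 7 counted members of the blood-cell lists. Of the listed genes, Mir126b (vascular), Mir142 (leukocyte), Mir9-1 (neuronal) and Mir1a-2 (muscle) were not counted, so shares and places leave them out. In a whole tissue, fewer cells of a type and less RNA per cell cannot be told apart, and the lists were chosen with earlier results of these data known. The Hox-cluster microRNAs that mark the hindbrain axis (Mir10a, Mir10b, Mir615, Mir196b, Mir196a-2 and Mir196a-1) held 351 times the share of the pair. Of the 6, 3 lay above Mir221 on the mean. Mir196b lay between the pair in replicate 1, at 168.5 CPM, and below Mir222 in replicate 2, at 32.73 CPM. The 2 below Mir222 were Mir196a-2 and Mir196a-1, copies by their names, and Mir196a-1 was at 0 counts. Reads that map to both copies were not counted. The neuronal list, led by Mir137, Mir128-1, Mir128-2 and Mir9-3, held 47.2 times the share of the pair. Of its 8 counted members, 4 lay above Mir221 and 4 below Mir222. The 4 below were Mir124a-1, Mir124a-2, Mir124a-3 and Mir9-2, hairpins of multi-copy families. Reads that map to several places were not counted. The values of these hairpins, and the share of the list, can therefore fall short of the level of the mature microRNAs.

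Vessel microRNAs are those with which Mir221 and Mir222 are most often named. The vascular and endothelial list, led by Mir126a, Mir130a, Mir23a and Mir210, held 215 times the share of the pair. Of its 7 counted members, 4 lay above Mir221, 1 (Mir27a, at 83.02 ± 9.94 CPM, SD, n = 2) below Mir222 on the mean though not in replicate 1, where it had 90.05 CPM, and Mir31 and Mir24-2 between the pair, at 121.2 ± 12.2 and 92.66 ± 0.745 CPM. Mir24-2 was not told apart from Mir222 by the limit of 2 SD. A mature sequence of Mir24-2 occurs in another hairpin too, so its reads that map to several places were not counted and its level can be too low. Of the mural list of vessel wall cells, Mir143 lay above Mir221, and Mir145a, at 114.1 ± 8.82 CPM (SD, n = 2), between the pair. In the library test 1 of the 7 vascular members passed as higher in replicate 1 and 3 as higher in replicate 2, and both mural members passed as higher in replicate 2, against 24.4% of all tested genes higher in replicate 1, 21.9% in replicate 2 and 46.4% in either direction. With plain totals it was 3 and 3 of the vascular members, and 0 of the mural members in either direction.

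The erythroid list (Mir451a, Mir144 and Mir486) together held less than the pair, which stood at 1.28 times its share. Mir451a, which is processed without Dicer, lay between Mir221 and Mir222 at 105.4 ± 10.7 CPM (SD, n = 2), and the other members lay below Mir222. The leukocyte and microglial list, without Mir142, which was not counted, held 1.68 times the share of the pair. On the mean of the 2 libraries 0 of its 4 counted members lay above Mir221. Myeloid Mir223 came closest to Mir221, at 170.1 ± 25.9 CPM (SD, n = 2), and in replicate 1 Mir221 had 180.9 CPM and Mir223 188.3 CPM. Mir155 and Mir150 lay between the pair, and Mir146 lay below Mir222. In the library test 1 of 3 erythroid members passed in each direction and 1 of 4 leukocyte members did, beside 46.4% of all tested genes in either direction, while with plain totals 0 members of either list passed as higher in replicate 2. Whether cells of the blood or of the vessels supplied the counts of Mir221 and Mir222 was not tested.

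The remaining lists were set beside the pair in the same way, again against 24.4% of all tested genes higher in replicate 1 and 21.9% higher in replicate 2. In the proliferation list, led by Mir17, Mir93, Mir106b and Mir20a and 118 times the share of the pair, 6 of 7 members passed as higher in replicate 1 and 0 as higher in replicate 2. Of these, Mir17, Mir18, Mir19a and Mir20a are close neighbours on chromosome 14, and Mir93, Mir106b and Mir25 on chromosome 5. The 7 are therefore not independent counts. In the Hox list 4 of 5 tested members passed as higher in replicate 1 and 0 as higher in replicate 2, and in the mesenchymal list, led by Mir21a, Mir214, Mir199b and Mir199a-2 and 13.2 times the share of the pair, it was 2 of 4 and 0, or 3 and 0 with plain totals. Mir199a-2 and Mir199a-1, the latter at 0 and 1 counts in replicates 1 and 2, are copies by their names. Reads that map to both were not counted, so the share of the mesenchymal list can be too low. In the neuronal list 1 of 5 passed as higher in replicate 1 and 2 as higher in replicate 2. In the muscle list 2 of 2 tested members passed as higher in replicate 1. The list was nearly all Mir206, which lay above Mir221 in replicate 1, at 369.6 CPM, and below Mir222 in replicate 2, at 24.21 CPM. Its other counted members, Mir133b and Mir1a-1, lay below Mir222 in both libraries, with Mir1a-1 at 0 counts. Mir1a-1 and the uncounted Mir1a-2 are copies by their names too, so reads that map to both were left out. Beside these, the log2 ratio of replicate 1 over replicate 2 for the summed counts of Mir221 and Mir222 was -0.06 after TMM scaling, with an exact binomial 95% interval of -0.18 to 0.05.

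The seed of Mir221 and Mir222 pairs with the letters ATGTAGC in a message. To show what the seed can meet, this word was searched on the sense strand of the longest annotated 3′ UTR of mouse genes known as targets in human cells, chosen after the data were seen. Messenger RNA was not measured in these libraries. The word was present in 9.51% of 20785 UTRs of GENCODE M21. It was found 1 time in Cdkn1b, where 23.3% of UTRs within 10% of the same length hold it, and 2 times in Kit, where 15.03% do. Cdkn1c, the p57 inhibitor of the cell cycle, had 1 match, against 4.99% of UTRs of similar length, and Bbc3, the death-promoting PUMA, 1 against 5.06%. Timp3, a protease inhibitor of the matrix, had 1 match, against 24.9%. Because the genes were picked as known targets, these percentages are background only and the matches are no test of enrichment.

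The sites in Cdkn1b and Kit, the best known targets, are printed with the seed match in capitals, as 23 bases of the plus strand of GRCm38, at chr6:134924416-134924438, chr5:75654977-75654999 and chr5:75656508-75656530.
Cdkn1b: ctctaaaagcattggATGTAGCa
Kit site 1: aatgatgggagatatATGTAGCa
Kit site 2: tttgtaaatattgaaATGTAGCa
Each match is followed by an A, which stands opposite the first base of the microRNA. A match is a description of the letters in a UTR and shows no binding in hindbrain.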

How the data were processed

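Raw read counts for each gene were deposited, made by the authors on mm10 with GENCODE M4, per the text files deposited beside the tables. Which aligner and counter they used is not given in the sources used here. The sense strand column was used. Its total was 5097205 counts in replicate 1 and 4460836 in replicate 2. The 4 summary lines, which name no gene and hold 52.6% and 53.0% of all reads, stayed out of the totals. Of 1973 identifiers 1894 matched GENCODE M21 (GRCm38), which gave symbols and coordinates. Of the 385 detected genes 349 had sequences in the RefSeq table.

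CPM is counts per 1000000 sense counts. Libraries were compared by an exact two-sided binomial test on TMM-scaled totals, pair ratios by Fisher's exact test, both with Benjamini-Hochberg adjustment at 0.05, and both were tested on simulated data. Alternatives were unstranded counts, other totals and scalings, count minimums, pseudocounts, distances, seed lengths, each of the replicates alone and an exact test by edgeR. Named were the pair, the 5 genes nearest in level to each, the 5 leading X-linked genes, the 10 most abundant of 14 other pairs that share a seed with at least 100 counts, and the leading members of each list. Others were chosen after their values were seen. Members and lists were chosen with earlier results of these data known. The labels call the libraries biological replicates, and p-values measure the spread or counting noise between these 2 only. Tools were edgeR 4.0.16 and DESeq2 1.42.0 in R 4.3.3, and scipy 1.17.1, numpy 2.4.6, pandas 2.3.3 and matplotlib 3.10.9 in Python 3.11.15.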

Additional observations from a re-analysis of the deposited data

How the results depend on the processing

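Of 58 alternative values 42 kept their direction, their side of the threshold or stayed within the spread between replicates. Part of the 42 could not do otherwise. With 2 libraries a level, share or ratio from either replicate alone always lies within the SD around their mean. The ratio within the pair could not move with unstranded counts, since the opposite strand held 0 counts at both hairpins. The 42 are therefore no measure of robustness. The levels moved with the denominator: Mir221 was 174.2 CPM with unstranded counts, 216.9 CPM without the most abundant gene in the total and 101.7 CPM with multimapping reads in the total. Mir222 was 110.5 and 51.82 CPM under the last 2 of these, and the summed share 0.0263%, 0.0327% and 0.0154% under the 3. The library ratio of Mir221 turned to 0.038 (log2) with plain totals, with an adjusted p of 0.742 by the exact binomial test. Over the alternatives that kept this test the adjusted p ran from 0.742 to 0.9455. edgeR's exact test called 7 genes at an assumed BCV of 0.1 and 3 at the estimated BCV, in place of 186. The estimated BCV comes from the same 2 libraries, so few genes could pass at it. The share of other pairs that share a seed with a ratio larger than that of Mir221 over Mir222, 89.5%, was 85.7% within 1000 bases, within 50000 bases or with 100 counts per hairpin, 87.0% with a seed of bases 2 to 7 and 87.5% without identical copies. Without 1 replicate the log2 ratio ranged over 0.92 to 1.03, Mir221 over 176.2 to 180.9 CPM and Mir222 over 88.68 to 93.26 CPM. No paired analysis was possible because there is 1 group. With 2 libraries and 416 to 922 counts per member, changes under about the interval widths given cannot be resolved.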
